A study of Mus musculus with 6 samples.

Results

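S100 proteins are small calcium-binding proteins, and 10 mouse genes of this family were examined in RNA sequencing counts of mammary tumour cells: S100a1, S100a4, S100a6, S100a8, S100a9, S100a10, S100a11, S100a13, S100a14 and S100a16. They were chosen by gene name from the 41795 features of the count file. The study sequenced 6 libraries of breast cancer cells from mice of the line FVB/N-Tg(MMTV-PyVT)634Mul/J, 3 labelled quiescent cancer stem cells (CSCs) and 3 labelled activated CSCs. Every library carries the same transgene, the polyomavirus middle T oncogene driven by the mouse mammary tumour virus promoter, which acts mainly in mammary epithelium, and there is no library without it. The labels used here give neither an age, nor the way the cells were sorted or activated, nor the number of mice or cultures behind a library. P-values therefore measure only the spread between these libraries, which may be technical. Of 12 luminal epithelial markers 4 were higher and 6 lower in activated CSCs. Krt8, the most abundant of them, was at 2435 ± 78.1 CPM (counts scaled by library size; SD, n = 3) in quiescent and 2319 ± 69.6 CPM in activated CSCs, while Cldn7 was at 7.75 ± 0.414 and 6.08 ± 0.839 CPM. Of 10 basal markers 9 were tested, 4 higher and 1 lower. The summed level of the basal list was 1009 to 1083 CPM in quiescent and 920.5 to 971.1 CPM in activated libraries. Tagln, the lowest marker of that list, was near 0, with 2 counts in quiescent and 3 in activated libraries. All 12 proliferation markers listed were higher in activated CSCs. Over all 15223 genes tested 24.1% were higher and 23.4% lower. Endothelial and lymphocyte markers summed to at most 6.41 and 1.52 CPM in any library.

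Most S100 proteins form dimers of small subunits that each hold a pair of EF-hand loops. On binding calcium the subunit opens a hydrophobic face that docks onto a target, often an annexin or a cytoskeletal protein. Some members are also released from cells and act on surface receptors such as TLR4 and RAGE, and several, S100a4 above all in mouse mammary tumours, are known for their link to metastasis. The comparison asked how the levels of these genes differed between quiescent and activated CSCs.

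The family split in direction. S100a1, S100a4, S100a8 and S100a13 were higher in activated CSCs, and S100a6, S100a9, S100a10, S100a11, S100a14 and S100a16 were lower. All 10 genes passed the filter on low counts, S100a9 only through its quiescent libraries, with 30 to 35 counts against 4 to 6 in activated ones. All 10 passed an adjusted p of 0.05 in edgeR's quasi-likelihood test, 4 higher and 6 lower. Over all 15223 genes tested 47.5% passed, 24.1% higher and 23.4% lower, so a call on its own is common in this comparison. The libraries of the 2 states did not overlap in 9 of the 10, 3 higher and 6 lower, against 55.9% of all genes tested, 27.9% higher and 28% lower. Sizes were mostly small: the median size of the log2 fold change was 0.42 over the 10 genes and 0.24 over all genes tested. Changes of at least 1 on the log2 scale were found in 2 of the 10, S100a9 and S100a14, against 10.1% of all genes tested. The calls of S100a6 and S100a8 did not hold when certain single libraries were left out, as given beside their values.

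**Figure D1:**
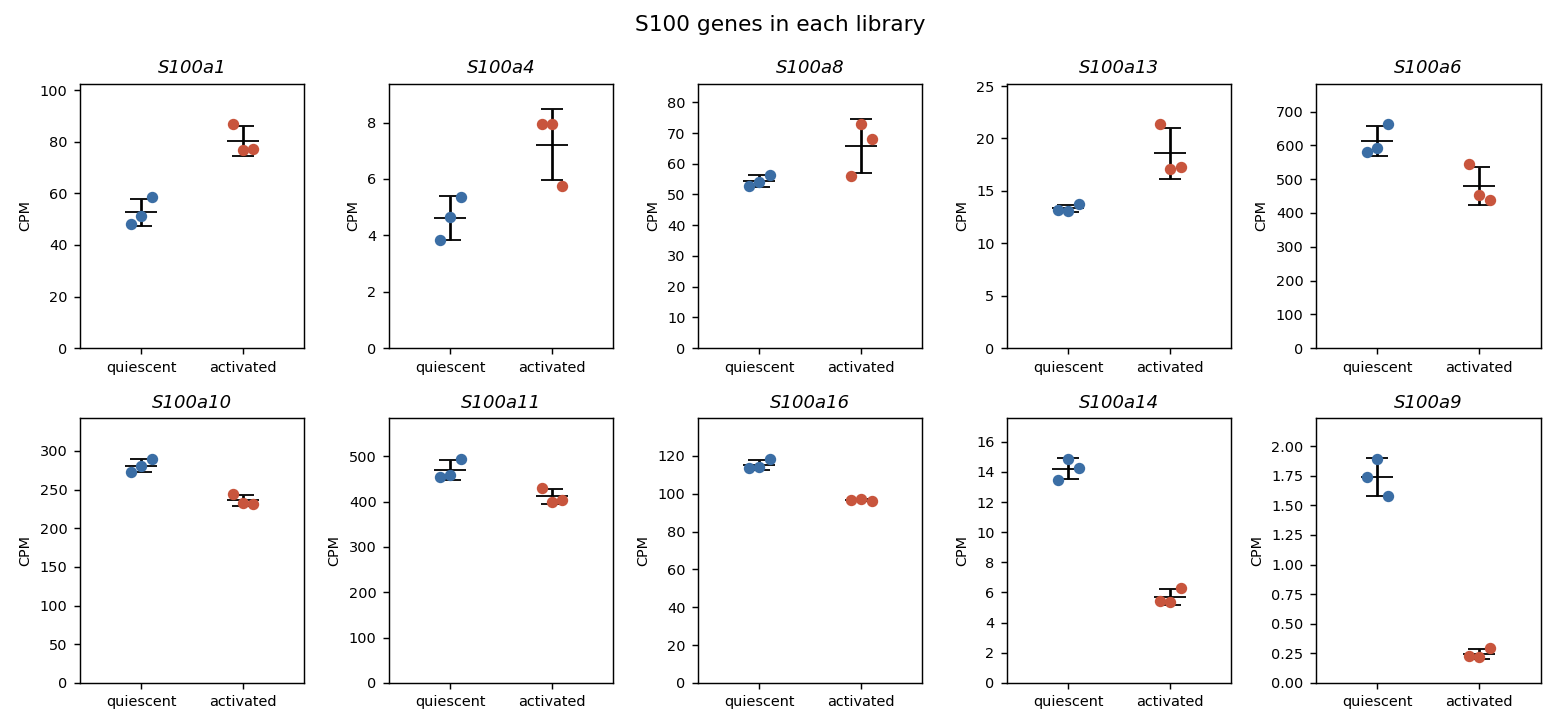
Level of each of the 10 S100 genes in CPM (y axis, from 0, a scale of its own in each panel) in the 3 quiescent (blue) and 3 activated (red) libraries, with the mean as a bar and the SD as whiskers. The states overlap in S100a8, where activated replicate 1 at 55.9 CPM lies below quiescent replicate 3 at 56.3 CPM, and in none of the other 9.

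All 10 genes lie on chromosome 3 (GRCm38) in 2 groups. The first runs over 185 kb from S100a1 to S100a9 and holds 8 of them, and the second runs over 44.1 kb and holds S100a11 and S100a10. S100a1 is on the minus strand and S100a13 on the plus strand. Their start sites, as used here, face away from each other with 104 bases between them. RefSeq gene models of S100a1 and S100a13 overlap by 98 bases, so this stretch depends on the start sites taken. The sequence between the start sites is shown because both genes were higher in activated CSCs while the next gene along the chromosome was lower. The upstream bases of S100a8 and S100a9 are shown because their products form one complex while the genes moved in opposite directions. Sequences are from RefSeq (GRCm38.p6), and capitals mark matches to any of 7 motifs searched on both strands: the TATA box TATAAA, the CCAAT box, the GC box GGGCGG, the AP-1 core TGANTCA, the C/EBP core TTGCNNAA, the STAT core TTCNNNGAA and the cell cycle element TTTGAA. The stretch between S100a1 and S100a13 is chr3:90514331-90514434, written on the plus strand. S100a8 is the 250 bases before its start, chr3:90668821-90669070 on the plus strand, and S100a9 the 250 bases before its start, chr3:90695722-90695971 on the minus strand.
S100a1 to S100a13: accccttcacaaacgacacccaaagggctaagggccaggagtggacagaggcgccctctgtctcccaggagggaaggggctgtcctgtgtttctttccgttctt
S100a8: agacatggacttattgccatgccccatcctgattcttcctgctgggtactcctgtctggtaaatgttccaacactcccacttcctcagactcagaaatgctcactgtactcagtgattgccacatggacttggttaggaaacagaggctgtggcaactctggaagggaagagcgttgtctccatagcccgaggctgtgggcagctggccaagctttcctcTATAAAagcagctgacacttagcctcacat
S100a9: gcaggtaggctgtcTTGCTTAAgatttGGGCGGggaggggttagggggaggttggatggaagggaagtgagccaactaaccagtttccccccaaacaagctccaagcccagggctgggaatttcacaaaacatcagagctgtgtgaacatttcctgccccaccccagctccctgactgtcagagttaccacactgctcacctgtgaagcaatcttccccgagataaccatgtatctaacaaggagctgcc
The stretch between S100a1 and S100a13 held 0 matches to the 7 motifs, and its GC content was 58.7%. Upstream of S100a8 there was 1 TATAAA, which begins 30 bases before the start site. S100a4 had 1 as well, beginning 31 bases before its start, and 12.4% of 32851 RefSeq windows of this length held this motif. Upstream of S100a9 there was no TATAAA, but 1 TTGCNNAA, which 9.56% of windows held, and 1 GGGCGG, held by 32.7%. S100a11 had 2 TGANTCA motifs, held by 6.75% of windows, and 3 GGGCGG. S100a16 had more than a single window, and its window from chr3:90540896 held 1 TGANTCA, 1 GGGCGG and 1 TTTGAA, the last held by 16%. S100a6 had 1 CCAAT, held by 33.8%. Of the 10 genes 8 had a window in the table used. The TTGCNNAA and GGGCGG matches of S100a9 do not overlap. A match is a description of letters and not a bound site.

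Levels between genes can be compared only per length, here as CPM per kilobase of the gene length in the file. S100a11 was at 931 ± 43.7 CPM per kilobase in quiescent CSCs and S100a6 at 852 ± 61.6. The ranges of their quiescent libraries overlapped, though S100a11 was above S100a6 in each of the 6 libraries. S100a10 followed at 402 ± 12 CPM per kilobase, then S100a8 at 139 ± 4.69, S100a1 at 85.6 ± 8.75 and S100a16 at 71 ± 1.7. S100a13 at 13.85 ± 0.353 and S100a14 at 13 ± 0.631 CPM per kilobase came next, above S100a4 at 7.36 ± 1.22 and S100a9 at 3.32 ± 0.303. In activated CSCs S100a14 dropped below S100a4, with 5.2 ± 0.476 against 11.5 ± 2.01 CPM per kilobase, and the other ranks were kept. The order depended on the length used. With the longest GENCODE transcript as the length, S100a14 at 8.44 fell below S100a4 at 9.26 and S100a1 at 77.8 below S100a16 at 102 CPM per kilobase in quiescent CSCs. S100a13 was then at 18.6, well above S100a14.

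**Figure D2:**
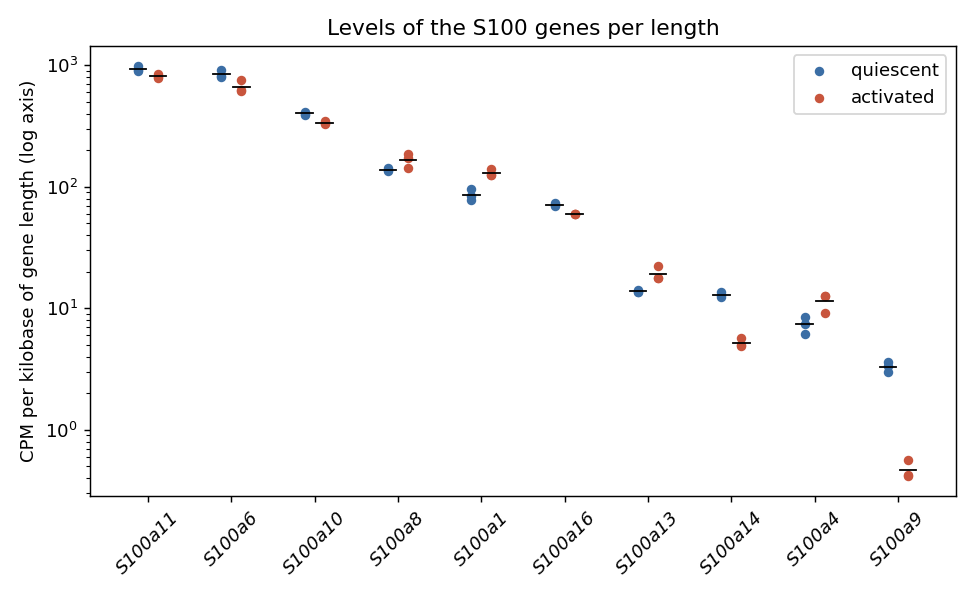
Level of each S100 gene in CPM per kilobase of gene length (y axis, log scale), ordered by the quiescent mean, with each library as a point (quiescent blue, activated red) and the mean as a line. S100a11, S100a6 and S100a10 lie highest in both states, and S100a9 lies lowest, at 3.32 in quiescent and 0.468 in activated CSCs.

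Summed over the 10 genes, 1555, 1586 and 1716 CPM were counted in quiescent and 1494, 1364 and 1347 CPM in activated libraries. The states did not overlap, and activated replicate 1 was the nearest to the quiescent libraries. These sums were 0.156 to 0.171% of the counts of a quiescent library and 0.134 to 0.15% of an activated one. S100a11 held 36.8 to 37.2% of the summed level per length in quiescent and 36.4 to 37.6% in activated libraries. The share of S100a6 went from 33.4 to 34.6% in quiescent to 28.6 to 32.3% in activated libraries, and that of S100a1 from 3.23 to 3.57% to 5.77 to 6.03%. In bulk libraries fewer cells of a type and less RNA per cell cannot be told apart.

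S100a10, S100a11 and S100a6 are the 3 abundant members, and each is known for an intracellular partner. S100a10, also called p11, has lost the ability to bind calcium and forms a stable complex with annexin A2 at the plasma membrane, where it also binds plasminogen. It was at 273, 280 and 290 CPM in quiescent and 245, 232 and 231 CPM in activated libraries. Every quiescent library was above every activated one. The log2 fold change was -0.25 (SE 0.04, adjusted p = 4.2e-05 in edgeR's quasi-likelihood test). S100a11, which binds annexin A1, was at 454, 460 and 495 CPM in quiescent and 430, 400 and 405 CPM in activated libraries. Here too the states did not overlap, and the change was smaller, at -0.19 (SE 0.04, adjusted p = 0.0016). Of the 31-base words in its longest GENCODE transcript 48.9% were also found in other genes, most of them in the processed pseudogene Gm12854, so reads of S100a11 may be split between copies.

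S100a6, calcyclin, was first described as a gene induced when cells are stimulated to grow, and it binds the ubiquitin-pathway protein encoded by Cacybp. Its level was 582, 593 and 664 CPM in quiescent and 545, 454 and 440 CPM in activated libraries. The lowest quiescent library was above the highest activated one, activated replicate 1, by a narrow margin. On the log2 scale S100a6 fell by 0.35 with an SE of 0.1 and an adjusted p of 0.033, and the 95% interval ran from -0.61 to -0.1. Its adjusted p was 0.055 without quiescent replicate 2, 0.067 without quiescent replicate 3 and 0.068 without activated replicate 2, and 0.00024 without activated replicate 1. The level of Cacybp was 64.4 ± 2.17 and 64 ± 2.86 CPM, with a log2 fold change of -0.01 and a 95% interval from -0.12 to 0.1.

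S100a8 and S100a9 encode the subunits of calprotectin, a zinc- and manganese-binding complex that fills the cytosol of neutrophils and, when released, acts on TLR4. S100a8 was at 52.7, 54 and 56.3 CPM in quiescent and 55.9, 72.9 and 68.1 CPM in activated libraries. Activated replicate 1 lay within the quiescent range and the other activated libraries lay above it. The log2 fold change was 0.27 (SE 0.09, adjusted p = 0.023), and the call was lost without any library other than activated replicate 1, with adjusted p from 0.055 to 0.097. Without activated replicate 1 the change was 0.38 with an adjusted p of 2.2e-06. S100a9 had 31, 35 and 30 counts in quiescent and 4, 4 and 6 counts in activated libraries, or 1.74, 1.89 and 1.58 CPM against 0.224, 0.219 and 0.293 CPM. All activated libraries were far below the quiescent ones. S100a9 fell by 2.78 on the log2 scale (SE 0.34, adjusted p = 3.5e-06), and the ratio of quiescent to activated counts, each pooled and divided by the pooled library sizes, was 7.02, for which counting error alone allows 3.99 to 13.3 (95%, exact Clopper-Pearson).

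The S100a8 RNA was thus in large excess over that of S100a9. Per length the ratio of S100a8 to S100a9 was 40.4, 38.1 and 47.8 in quiescent and 334, 445 and 311 in activated libraries, which rest on 4 to 6 counts of S100a9. Markers of neutrophils were mostly near 0 in both states. Of 15 such markers 9 were too low to be tested, and the defining genes Ly6g, Mpo, Elane, Ctsg and Ngp had 0 to 2 counts in any library and Retnlg 0 in all. Of the 6 tested, 3 were higher and 0 lower in activated CSCs, and the summed level of the list was 12650 to 13760 CPM in quiescent and 15620 to 16970 CPM in activated libraries. Nearly all of it was Lcn2 and Ltf, at 7303 ± 385 and 5726 ± 201 CPM in quiescent CSCs, which mammary epithelium also expresses. Cxcr2, a chemokine receptor gene of neutrophils, had 8, 20 and 18 counts in quiescent and 1, 1 and 0 in activated libraries and so went the way of S100a9. Prtn3, a granule protease gene of neutrophils, went the other way, with 78 counts in quiescent and 840 in activated libraries (log2 3.38, adjusted p = 2.2e-11), as did Itgam, an integrin gene of myeloid cells (log2 0.56). The part of these markers in the S100a9 result was not tested. Of 14 macrophage and myeloid markers tested, 7 were higher, as S100a8 was, 1 was lower and 6 did not pass. Over all genes tested 24.1% were higher and 23.4% lower. The summed level of the macrophage and myeloid list was 796 to 854 CPM in quiescent and 1174 to 1187 CPM in activated libraries, most of it Cd14 and Lyz2. No marker of that list was at 0 in all libraries, and its part in the S100a8 result was not tested.

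**Figure D3:**
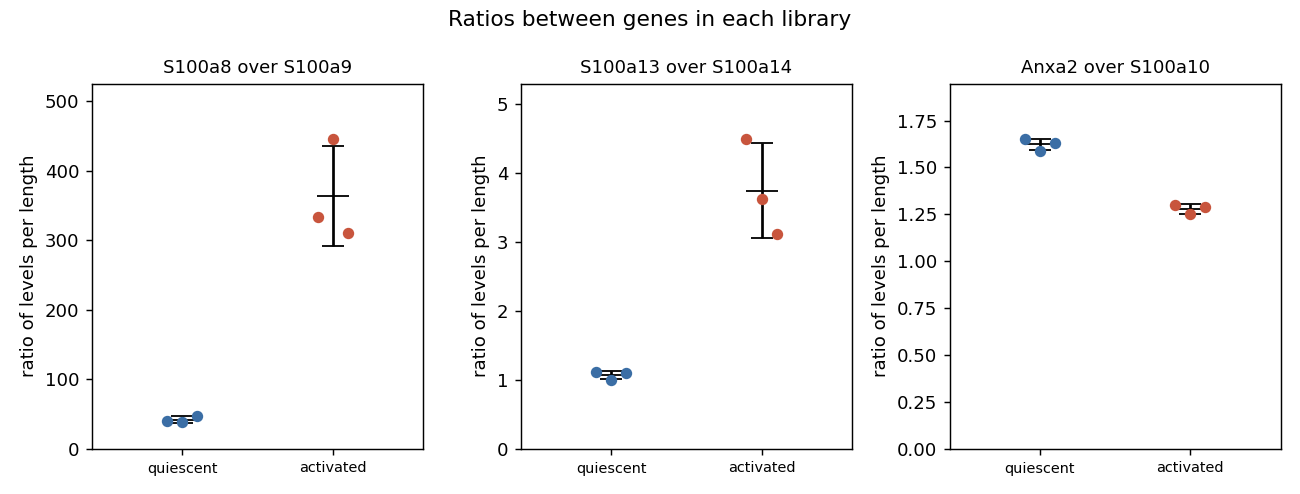
Ratio of the levels per length of 2 genes (y axis, from 0) in each quiescent (blue) and activated (red) library, with mean and SD, for S100a8 over S100a9, S100a13 over S100a14 and Anxa2 over S100a10. The first ratio lies between 38.1 and 47.8 in quiescent and 311 and 445 in activated libraries, the second between 1 and 1.11 and between 3.12 and 4.49, and the third between 1.59 and 1.65 and between 1.25 and 1.3.

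S100a1 and S100a13 are the divergent pair. S100a1, a calcium sensor best known from heart and skeletal muscle, was at 48.1, 51.3 and 58.6 CPM in quiescent and 86.9, 76.8 and 77.2 CPM in activated libraries. The states were well apart, and the change of 0.61 on the log2 scale (SE 0.07, adjusted p = 1.4e-05) was a 1.52-fold rise. S100a13, which takes part in the export of fibroblast growth factor 1, was at 13.2, 13.1 and 13.7 CPM in quiescent and 21.4, 17.1 and 17.2 CPM in activated libraries. All activated libraries were above the quiescent ones, with activated replicate 1 the highest. S100a13 rose by 0.48 (SE 0.1, adjusted p = 0.00071). The ratio of S100a1 to S100a13 per length was 5.72 to 6.68 in quiescent and 6.36 to 7.03 in activated libraries, so the pair kept nearly the same ratio, with overlapping states. Their spans in the count file do not overlap, but their RefSeq gene models overlap by 98 bases, and no source used here states whether reads were counted by strand. The growth factor gene itself, Fgf1, was at 22 ± 0.683 CPM in quiescent CSCs and rose by 1.11 on the log2 scale to 47.5 ± 1.36 CPM (adjusted p = 1.4e-10).

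S100a14 and S100a16 lie next to S100a13 and are both expressed in epithelia. S100a14 starts 2267 bases after the end of S100a13 on the same strand. It was at 13.5, 14.9 and 14.2 CPM in quiescent and 5.43, 5.37 and 6.3 CPM in activated libraries. Every activated library was below every quiescent one, a 2.49-fold lower mean, with a log2 fold change of -1.32 (SE 0.11, adjusted p = 3.6e-08). S100a13 over S100a14 per length was 1.11, 1 and 1.1 in quiescent and 4.49, 3.63 and 3.12 in activated libraries. The size of this ratio depends on the length used, since the longest GENCODE transcripts put the quiescent levels at 18.6 and 8.44 CPM per kilobase, while the difference between the states does not. S100a16, 8.42 kb further on, was at 113, 114 and 118.5 CPM in quiescent and 96.9, 97.4 and 96.3 CPM in activated libraries. The highest library of a state was at most 1.04 times the lowest, the smallest such ratio of the 10 genes, and it fell by 0.25 (SE 0.04, adjusted p = 0.0001).

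S100a4, metastasin, binds the non-muscle myosin heavy chain encoded by Myh9 and promotes metastasis in mouse mammary tumour models. It was at 3.82, 4.65 and 5.36 CPM in quiescent and 7.95, 7.94 and 5.76 CPM in activated libraries, on 68 to 145 counts. The states did not overlap, though activated replicate 3 came close to quiescent replicate 3. S100a4 rose by 0.64 on the log2 scale, the 95% interval running from 0.29 to 0.99 (SE 0.17), and its adjusted p was 0.0043. Of the 31-base words in the longest GENCODE transcript of S100a4 58.1% were shared with Gm42674, another GENCODE gene. The gene is also called fibroblast-specific protein 1, and fibroblast markers moved in the same libraries: of 14 tested, 11 were higher and 1 lower (median log2 0.62), with Col1a1 at 269 ± 6.87 and 593 ± 69.4 CPM. Fn1, the most abundant of them, was the lower one, at 2949 ± 56.5 and 2139 ± 56.3 CPM. Over all genes tested 24.1% were higher and 23.4% lower. The summed level of the list was 3862 to 3942 CPM in quiescent and 3768 to 3968 CPM in activated libraries, and no marker of the list was at 0. The part of these markers in the S100a4 result was not tested. Myh9 was at 1675 ± 59 and 1511 ± 41.5 CPM (log2 -0.15, SE 0.04, adjusted p = 0.0067).

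**Figure D4:**
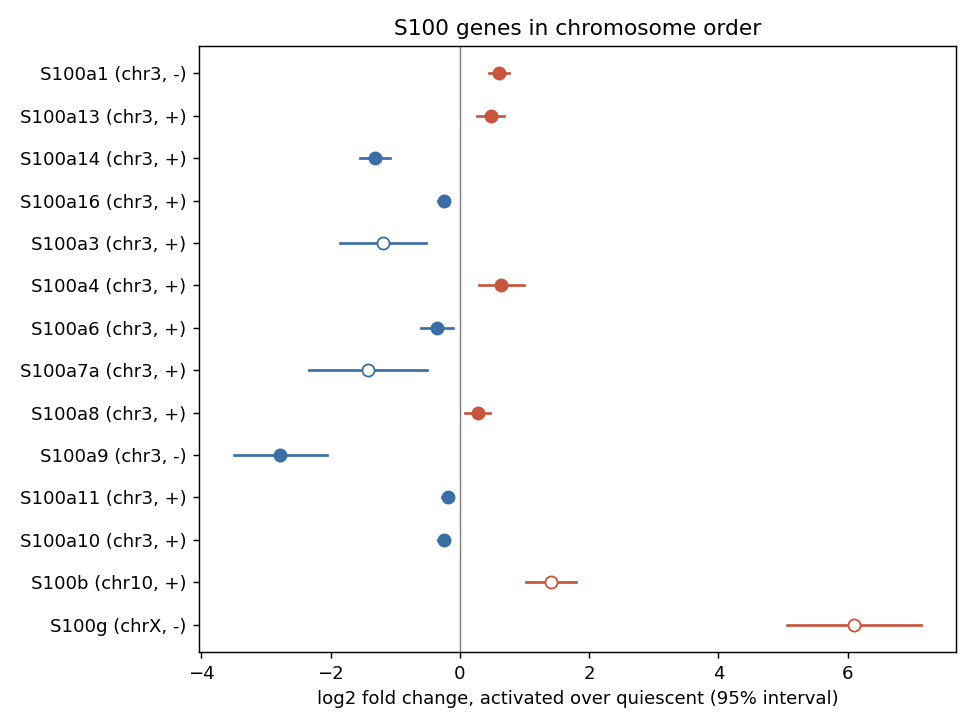
Log2 fold change of activated over quiescent CSCs (x axis) with its 95% interval for the 10 S100 genes (filled points) and the 4 other S100 genes tested (open points), in chromosome order from top to bottom, with the strand in brackets. Higher genes are red and lower genes blue, and S100a1 and S100a13 at the top are followed by S100a14 at -1.32.

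Direction changed several times along the first group, from S100a1 and S100a13 (higher) through S100a14 and S100a16 (lower), S100a4 (higher), S100a6 (lower) and S100a8 (higher) to S100a9 (lower). Genes within these groups and 100 kb on each side, other than the 10, were 20. Of these 8 were tested, 1 higher, 4 lower and 3 not past the threshold, against 24.1% higher and 23.4% lower over all genes tested. The lower ones include S100a3 and S100a7a, which are counted again below. Without S100 genes there were 16 neighbours, 6 of them tested, 1 higher, 2 lower and 3 not past. Among them Ilf2, which encodes a double-stranded RNA-binding protein, rose 1.14-fold, to 66.8 ± 3.07 CPM. Chtop, a chromatin-associated gene next to S100a1, was 1.11-fold lower (adjusted p = 0.0087). Pglyrp4, a peptidoglycan recognition protein gene beyond S100a9, fell from 4.7 ± 0.177 to 2.37 ± 0.727 CPM (adjusted p = 0.00092). Snapin, Npr1 and Tchh did not pass.

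Among 9 further genes of the file whose names begin with S100, 5 were tested, 2 higher and 3 lower, against 24.1% higher and 23.4% lower over all genes tested. S100g passed the filter on low counts through its activated libraries, and S100a3 and S100a7a through their quiescent ones. S100b and S100g, which lie on other chromosomes, were the higher ones. S100b, a marker of glia and melanocytes, had 35, 59 and 58 counts in quiescent and 134, 117 and 164 in activated libraries, or 2.74 ± 0.669 and 7.31 ± 0.819 CPM. The states did not overlap, and the rise was 1.41 on the log2 scale (SE 0.18, adjusted p = 6.2e-06). Of 8 Schwann cell and melanocyte markers 4 were tested, 1 higher and 1 lower, with Sox10 at 440 ± 9.01 and 544 ± 49.9 CPM. Tyr and Dct were at 0 in all libraries, the summed level of the list was 502 to 518 CPM in quiescent and 552 to 648 CPM in activated libraries, and the part of these markers was not tested. S100g, calbindin D9k, a vitamin D-responsive calcium carrier of intestine, had 1, 1 and 0 counts in quiescent and 62, 60 and 43 in activated libraries. The ratio of activated to quiescent counts, pooled in the same way, was 80.6, for which counting error alone allows 22 to 671 (95%, exact Clopper-Pearson).

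S100a3 and S100a7a, within the first group, were lower in activated CSCs. S100a3 had 21, 33 and 33 counts in quiescent and 8, 15 and 16 in activated libraries (log2 -1.18, SE 0.31, adjusted p = 0.005). Its span in the file runs over S100a2, which lies within it and had 9 counts in quiescent and 1 in activated libraries, so counts of these genes are uncertain. S100a7a, a relative of human psoriasin, had 14, 17 and 14 counts against 7, 3 and 7 (log2 -1.42, adjusted p = 0.012), and its adjusted p was 0.056 without activated replicate 2 and 0.084 with DESeq2. S100z had 5 counts in quiescent and 1 in activated libraries, and S100a5 and the pseudogene S100a11-ps had 0 in all. S100pbp, which encodes a binding partner of human S100P and not an S100 protein, was at 13 ± 2.19 and 10.4 ± 0.394 CPM with overlapping states (adjusted p = 0.033, and from 0.077 to 0.22 without quiescent replicate 1 or 2 or activated replicate 2 or 3).

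Annexins are the membrane-binding proteins that many S100 dimers bridge. Of 12 listed genes 10 were tested, 7 lower, 2 higher and 1 not past the threshold, with a median log2 fold change of -0.47 against -0.0032 over all genes tested, of which 23.4% were lower and 24.1% higher. Anxa2, the partner of S100a10, was at 1157, 1143 and 1209 CPM in quiescent and 818, 745 and 767 CPM in activated libraries (log2 -0.59, SE 0.04, adjusted p = 5.6e-09). Both genes of this complex were thus lower, and Anxa2 over S100a10 per length was 1.59 to 1.65 in quiescent and 1.25 to 1.3 in activated libraries, with no overlap. Anxa1, the partner of S100a11, was at 2440 ± 9.9 and 1547 ± 54.8 CPM and fell by 0.66 on the log2 scale (adjusted p = 5.7e-10). Anxa8 fell by 0.97, Anxa3 by 0.53 and Anxa7 by 0.41 on the log2 scale, while Anxa6 rose by 0.34. For Anxa5, with means of 345 ± 5.49 and 362 ± 5.49 CPM, the adjusted p was 0.11; it was 0.024 once activated replicate 1 was left out.

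Plasminogen is bound at the cell surface by the complex of S100a10 and annexin A2, and genes of its activation were also listed. Of 10 such genes 9 were tested, 6 lower, 1 higher and 2 not past, against 23.4% lower and 24.1% higher over all genes tested. Plaur, the receptor of the urokinase activator, was at 148 ± 4.25 CPM in quiescent CSCs and fell by 1.33 on the log2 scale to 58.8 ± 1.39 CPM (adjusted p = 2.7e-13). Plau, urokinase itself, was at 281 ± 3.57 and 177 ± 4.27 CPM, and Plat, the tissue-type activator, at 61.5 ± 2.21 and 42.4 ± 3.44 CPM, both past the threshold. Serpinb2, which encodes an inhibitor of these activators, fell from 12.3 ± 1.13 to 4.21 ± 0.519 CPM. Serpine2 fell from 950 ± 12.5 to 807 ± 15 CPM. Plg, which encodes plasminogen, had 0 counts in all libraries.

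Proposed receptors of released S100 proteins and related surface proteins moved in both directions. Of 11 listed surface genes 10 were tested, 3 higher, 4 lower and 3 not past, against 24.1% higher and 23.4% lower over all genes tested. Tlr4, the receptor of calprotectin, was at 84.9, 86.8 and 81.9 CPM in quiescent and 70.4, 69.4 and 67.8 CPM in activated libraries, with no overlap (log2 -0.29, SE 0.05, adjusted p = 9.2e-05). Ager, which encodes RAGE, had 0 counts in all libraries. Alcam, an adhesion protein, fell by 0.53 on the log2 scale, Mcam by 0.2 and Cd68 by 0.18. Cd33 rose by 0.73 and Sirpa by 0.19. Bsg, basigin, rose by 0.11 (adjusted p = 0.047), and its call was lost without quiescent replicate 1 or 2, without activated replicate 2 or 3 and with limma-voom, with adjusted p from 0.052 to 0.24.

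Among 20 intracellular partners 17 were tested, 4 higher, 5 lower and 8 not past, with a median of -0.05. Over all genes tested 24.1% were higher and 23.4% lower. Mdm2, the ubiquitin ligase of p53 that S100 proteins can bind, fell by 2.12 on the log2 scale (adjusted p = 9.4e-16), the largest change of the list. Mdm2 is also a target gene of p53. Tgm2, transglutaminase, rose by 0.89, Ezr, ezrin, by 0.47, and Sugt1, a co-chaperone bound by S100a6, fell by 0.34. Capzb fell by 0.17. Ahnak, the giant scaffold that binds the complex of S100a10 and annexin A2, was at 1055 ± 54.4 and 1022 ± 41.9 CPM, with overlapping states and a 95% interval of the log2 fold change from -0.14 to 0.05.

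**Figure D5:**
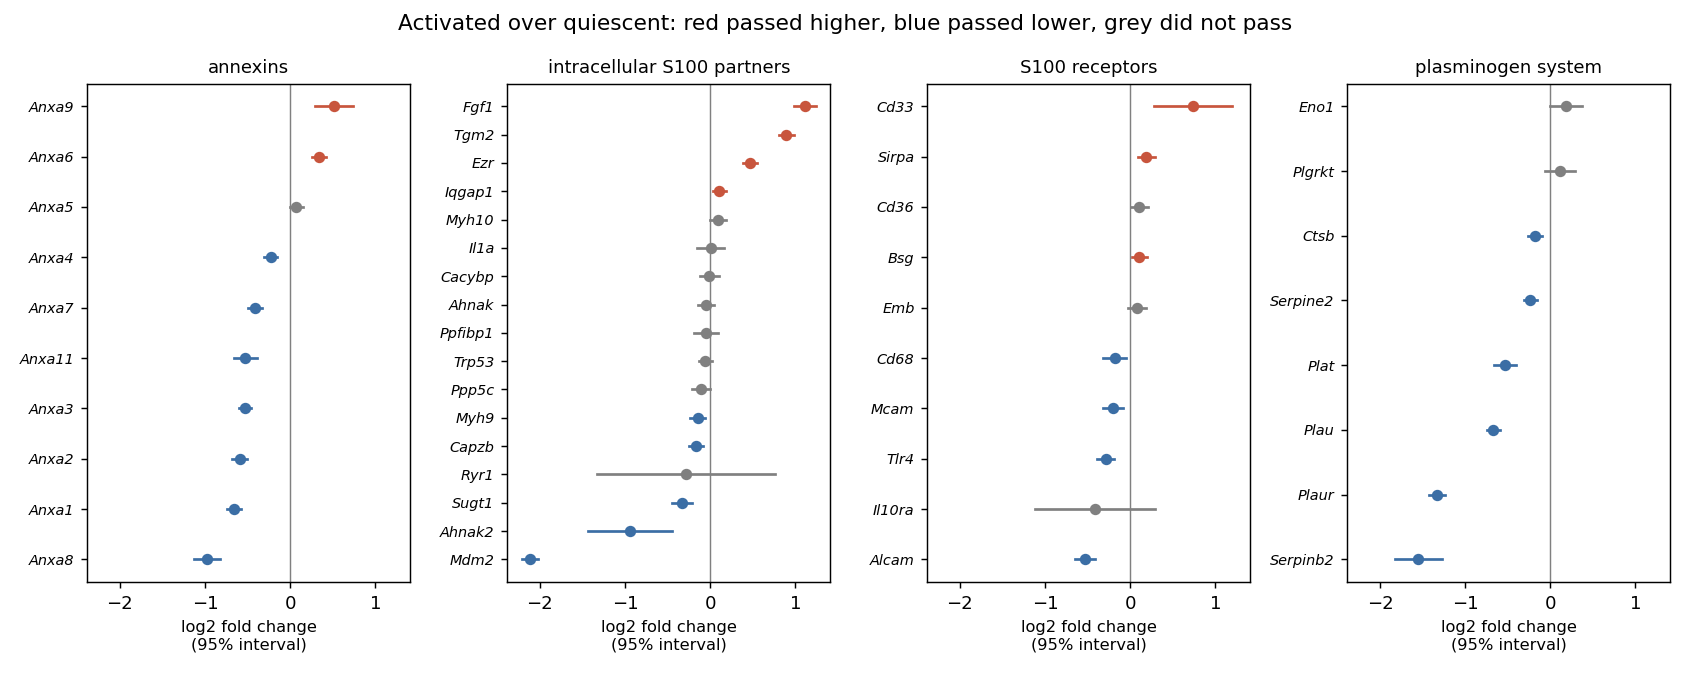
Log2 fold change of activated over quiescent CSCs (x axis) with its 95% interval for the tested annexins, intracellular partners, receptors and plasminogen system genes, each panel ordered by the change. Red points passed the threshold higher, blue points lower, and grey points did not pass; 7 of 10 annexins are blue, as are 6 genes of the plasminogen panel, and 1 tested gene of that panel is not drawn.

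The genes whose 6 log2 CPM values lay nearest to those of an S100 gene, after centring on the mean, are given as a description over 6 libraries. For S100a9 these included Slc6a14, an amino acid transporter gene, at a distance of 0.27, and Epgn, epithelial mitogen, at 0.31, with log2 fold changes of -2.39 and -2.33. The nearest to S100a9, at 0.2, was a locus with no gene name. For S100a14 they were 4930572G02Rik at 0.12, Nqo1, a quinone reductase gene, at 0.18, and Slc48a1, a heme transporter gene, also at 0.18. S100a1 had Slc2a10 at 0.07, Proser3 at 0.08 and Cntrob at 0.1, and S100a4 had Proca1 at 0.13 and 4921507P07Rik and Irx3os at 0.23. With 2 states most of such likeness is the difference between the states.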

How the data were processed

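RNA was measured in 6 libraries, 3 labelled quiescent and 3 activated CSCs. The deposited values are raw counts per gene: the columns hold whole numbers that sum to a different total in each library. Per the submitters' processing notes, the tools were featureCounts 1.5.0-p3, HISAT2 2.0.5 and StringTie 1.3.3b; their roles are not stated there. Coordinates carry GRCm38 accessions. Per the labels' protocols, Trizol was used for extraction and a NEBNext Ultra kit for the libraries. Libraries held 17785331 to 20510377 counts.

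The main test was edgeR's (version 4.0.16, R 4.3.3; quasi-likelihood test, robust estimation, TMM scaling, filterByExpr, Benjamini-Hochberg adjustment over the 15223 genes tested, threshold 0.05). CPM are TMM-scaled, SE is the log2 fold change divided by the root of F, and intervals of fold changes are 95%. Count-ratio intervals hold counting error and no other. The fit was tested on simulated data. No 2 libraries of one state agreed within sampling noise (chi-square over degrees of freedom 4.01 to 7.99, highest for the pairs with activated replicate 1), so none was merged.

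The 10 genes and the lists were chosen with earlier results of these data known. Named genes were all S100 genes with at least 10 counts in all, preset partners and the 3 nearest profiles of 4 members. The 6 lowest adjusted p-values of each list other than the marker and epidermal lists were also named, as were some of the most abundant markers. S100z, S100a5, S100a11-ps, Anxa5, Npr1, Tchh, Plg, the epidermal genes and markers other than the most abundant were named after their values were seen. The alternatives tried were DESeq2 1.42.0, limma-voom (limma 3.58.1), 3 other scalings, other filters, gene subsets and thresholds, the replicate number as a block, leaving out each library, and another gene length. Shared 31-base words and longest transcripts were taken from GENCODE M21. Values of 2 genes of the lists are not reported here, though the counts include them.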

Additional observations from a re-analysis of the deposited data

How the results depend on the processing

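All 10 S100 genes kept their direction in all 17 fits run, the reported one included, and 8 of them were past an adjusted p of 0.05 in every fit. S100a6 was past it in 13 and S100a8 in 12. At an adjusted p under 0.01, S100a6 (-0.35 on the log2 scale) and S100a8 (0.27) were not called, and the receptors called higher were 1 and the other S100 genes called lower 1. Leaving out each library gave -0.45 to -0.29 for S100a6, 0.19 to 0.38 for S100a8, 1 to 2 plasminogen genes called higher and 1 to 3 other S100 genes called lower. DESeq2 called 2 plasminogen genes higher and 1 other S100 gene lower, and 2 plasminogen genes were called higher with no filter beyond 1 count. Same-numbered libraries did not deviate together (correlations of 0.0078, -0.03 and 0.044), and not every library correlated best with its own number. These values show no pairing by number, but correlations of 6 libraries cannot exclude a shared source, which the labels do not give. With the replicate number as a block S100a6 was at -0.36 (adjusted p = 0.092), 2 plasminogen genes were called higher, and 3574 genes rose and 3468 fell over all genes tested, against 3668 and 3568 without it. With the longest GENCODE transcript as the length, quiescent levels were 9.26 CPM per kilobase for S100a4, 783 for S100a6, 109 for S100a8, 18.6 for S100a13, 8.44 for S100a14 and 102 for S100a16. The causes were not tested. No scaling moved the median of all genes by over 0.1. S100a9 in activated CSCs rests on 14 counts, which limits its fold change.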

Other observations

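Between the groups of S100 genes on chromosome 3 lies the epidermal differentiation complex, whose genes build the outer layers of the skin. Of 18 listed genes of this complex 6 were tested, 5 lower in activated CSCs, 0 higher and 1 not past the threshold, against 23.4% lower over all genes tested. Crct1 was at 4.96 ± 0.46 CPM in quiescent CSCs and fell by 2.46 on the log2 scale to 0.892 ± 0.204 CPM (adjusted p = 6.4e-08 in edgeR's quasi-likelihood test). Pglyrp3, a peptidoglycan recognition protein gene, fell from 3.2 ± 0.461 to 0.461 ± 0.172 CPM (log2 -2.78, adjusted p = 3.8e-07 in the same test). Pglyrp3 passed the filter on low counts only through its quiescent libraries, with 56, 51 and 70 counts against 6, 12 and 8. Sprr1a, which encodes a cornified envelope precursor, fell from 7.67 ± 0.704 to 3.49 ± 0.763 CPM, and Ivl, involucrin, from 3.09 ± 0.147 to 1.7 ± 0.403 CPM. Tchh, trichohyalin, was at 7.12 ± 0.744 and 6.21 ± 0.283 CPM. All of these levels were low, with the summed level of the list at 31.4 to 32.4 CPM in quiescent and 14.8 to 17 CPM in activated libraries, and 12 of the 18 were too low to be tested.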
